A study of Homo sapiens with 4 samples.

Results

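The genes described here encode Mediator and the RNA polymerase II machinery that it contacts. They were 45 genes: 24 of Mediator (MED1 and other subunits, with the kinase CDK8 and its cyclin CCNC), 12 subunits of RNA polymerase II, and 9 general transcription factor genes. Members were the probe sets of an expression array whose platform annotation names 1 of these genes alone. That rule found 79 of 22215 probe sets, for 44 of the genes. No probe set was assigned to MED6, which is not analysed here. The measurements come from LNCaP, a line of human prostate cancer cells that respond to androgen, cultured in serum-containing RPMI-1640. Cells of 2 samples were transfected transiently, with a lipid reagent, with a vector expressing MED1, and cells of 2 control samples with the empty vector. Total RNA was extracted 24 hours later. The promoter of the vector, the share of cells that took it up, and whether the duplicates were separate cultures are not stated in the labels used here. The text description of the control samples names the MED1 vector, whereas their title, source and transfection label all say control or empty vector, and these were followed.

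Mediator is a large complex that bridges DNA-bound transcription factors and RNA polymerase II. Its tail subunits bind many activators, its head and middle bind the polymerase, MED14 runs through the complex as a scaffold, and a detachable kinase module of CDK8, cyclin C, MED12 and MED13 regulates that contact. MED1, in the middle module, binds nuclear receptors, among them the androgen receptor of prostate cells, through short leucine-rich motifs. The general transcription factors place the polymerase at the promoter: TBP bends the core promoter DNA, TFIIB and TFIIF position the enzyme, and TFIIE and TFIIH, the latter holding the kinase CDK7, open the DNA and phosphorylate the polymerase tail.

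The promoters shown are those of MED1, of MED7 and POLR2B, which had the lowest p-values after MED1, and of CDK8, the enzyme of the kinase module, picked with their values known. They serve to identify the chromosomal genes that the probe sets report on, for MED1 beside any vector copy. Each line gives the 120 bases before the transcription start (for MED7, the more upstream of its 2 starts) in RefSeq's GRCh38.p14, read 5′ to 3′ along the gene, with matches to TCGCGA in capitals.
MED1 (chr17:39451264-39451383, minus strand): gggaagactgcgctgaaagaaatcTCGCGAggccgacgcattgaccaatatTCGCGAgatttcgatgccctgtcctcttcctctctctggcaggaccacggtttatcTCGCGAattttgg
MED7 (chr5:157142866-157142985, minus strand): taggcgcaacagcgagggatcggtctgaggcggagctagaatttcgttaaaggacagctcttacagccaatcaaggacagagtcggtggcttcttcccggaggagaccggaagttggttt
CDK8 (chr13:26254009-26254128, plus strand): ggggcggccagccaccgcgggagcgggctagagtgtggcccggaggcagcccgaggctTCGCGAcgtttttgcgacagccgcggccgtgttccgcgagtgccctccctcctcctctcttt
POLR2B (chr4:56978776-56978895, plus strand): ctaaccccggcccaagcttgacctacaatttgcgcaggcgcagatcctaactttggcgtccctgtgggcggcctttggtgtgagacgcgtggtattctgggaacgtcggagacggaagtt
The letters TCGCGA, which read the same on both strands, were chosen after the MED1 sequence had been seen. They begin 96, 69 and 13 bases before the MED1 start and 62 bases before the CDK8 start, and are not in the windows shown for MED7 and POLR2B. Over the 250 bases before the start, 928 of 35116 promoters (2.64%) held TCGCGA. The 33 members with an entry had 39 listed promoters, since some genes have several overlapping ones. Of these, 5 (12.8%) held it, those of MED1, CDK8, CCNC and GTF2F1. By gene this was 4 of 33, MED1 among them. CCNC counts with 2 promoters, and whether their matches are the same site was not analysed. None of the 7 matches overlapped a match to another motif searched. Of those, each on both strands, the TATA box, searched as TATAAA, was in 7.69% of member promoters and 10.7% of all. The GC box, searched as GGGCGG, was in 51.3% and 42.6%. A core bound by ETS factors, searched as CCGGAAG, was in 25.6% and 8.52%. The CCAAT box was in 23.1% and 32.0%. These are counts of letters, with no measurement of binding.

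Signals are MAS5 intensities, which summarise the probe pairs of a probe set on a linear scale. Arrays have no read depth, and their number limits the precision. A level of 1 probe set cannot be set against that of another, because probes differ in how they bind. The median signal over all probe sets was 77.0 to 78.4 in the MED1 samples and 79.6 to 82.7 in the empty vector samples, and Pearson's r between arrays of different groups (0.985 to 0.990 over tested probe sets) was close to that within groups (0.992 and 0.990). For the actin control, the 3′ signal was 8.14 to 9.45 times the 5′ signal over the 4 arrays, and for the GAPDH control it was 1.16 to 1.27 times. All 8 measured genes of a list of 10 luminal prostate and LNCaP markers had a tested probe set. The dimmest, TRPM8, was near the filter of 32.2, at 46.5 and 28.1 in the MED1 samples against 20.8 and 34.3 in the controls. Among the others was KLK3, prostate-specific antigen. Its probe set 204582_s_at read 3659 and 3990.4 in the MED1 samples against 4166 and 4208 in the controls, and 204583_x_at, where the groups overlapped, 1807 and 2742 against 2690.3 and 2355. No leukocyte marker of the 3 measured was above the filter, 1 of 5 fibroblast genes was (COL1A1, by 1 of 4 probe sets), and 1 of 3 basal prostate genes was (KRT14).

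MED1, the gene on the vector, was higher in the cells given it by 1 of its 2 probe sets. Probe set 203496_s_at read 559 and 807 in the MED1 samples against 292 and 315 in the empty vector samples. Both MED1 arrays lay above both control arrays, and the MED1 samples differed from each other more than the controls did. The means were 683 ± 175 and 304 ± 16.1 (SD, n = 2). On the log2(signal + 16) scale the difference was 1.11 ± 0.16 (limma's standard error, SE), which is 2.15-fold on that scale (adjusted p = 0.0344, limma with Benjamini-Hochberg). The other probe set, 203497_at, read 1172 and 1074 in the MED1 samples against 1097 and 1011 in the controls. Its arrays overlapped, and its log2 fold change was 0.090 ± 0.10 (adjusted p = 0.83). Where on the transcript each probe set lies was not analysed here, and the part of the vector and of the chromosomal gene in the signal was not tested. The s in the name of a probe set marks probes shared by several transcripts, often of the same gene. In fits that leave out 1 array, the spread within the remaining pair stood for both groups. In such fits the call of 203496_s_at was lost without empty vector replicate 1 (log2 fold change 1.05, adjusted p = 0.0621, limma) and without empty vector replicate 2 (1.16, adjusted p = 0.0824). It was also lost when dim probe sets were kept (0.381) and when limma's prior variance had no trend with signal (0.357).

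The ratio of the 2 MED1 probe sets within an array restates the same signals without any scaling between arrays. The signal of 203496_s_at was 0.477 and 0.752 times that of 203497_at in the MED1 samples, and 0.267 and 0.312 times in the controls. The ratio was thus higher on both MED1 arrays, and their log2 fold changes were 1.02 apart. Over all genes with 2 or more tested probe sets, 14 of 2628 (0.533%) had a gap at least as wide, and the median gap was 0.20. Since 203496_s_at was among the probe sets that passed, this rarity is no separate evidence.

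**Figure D1:**
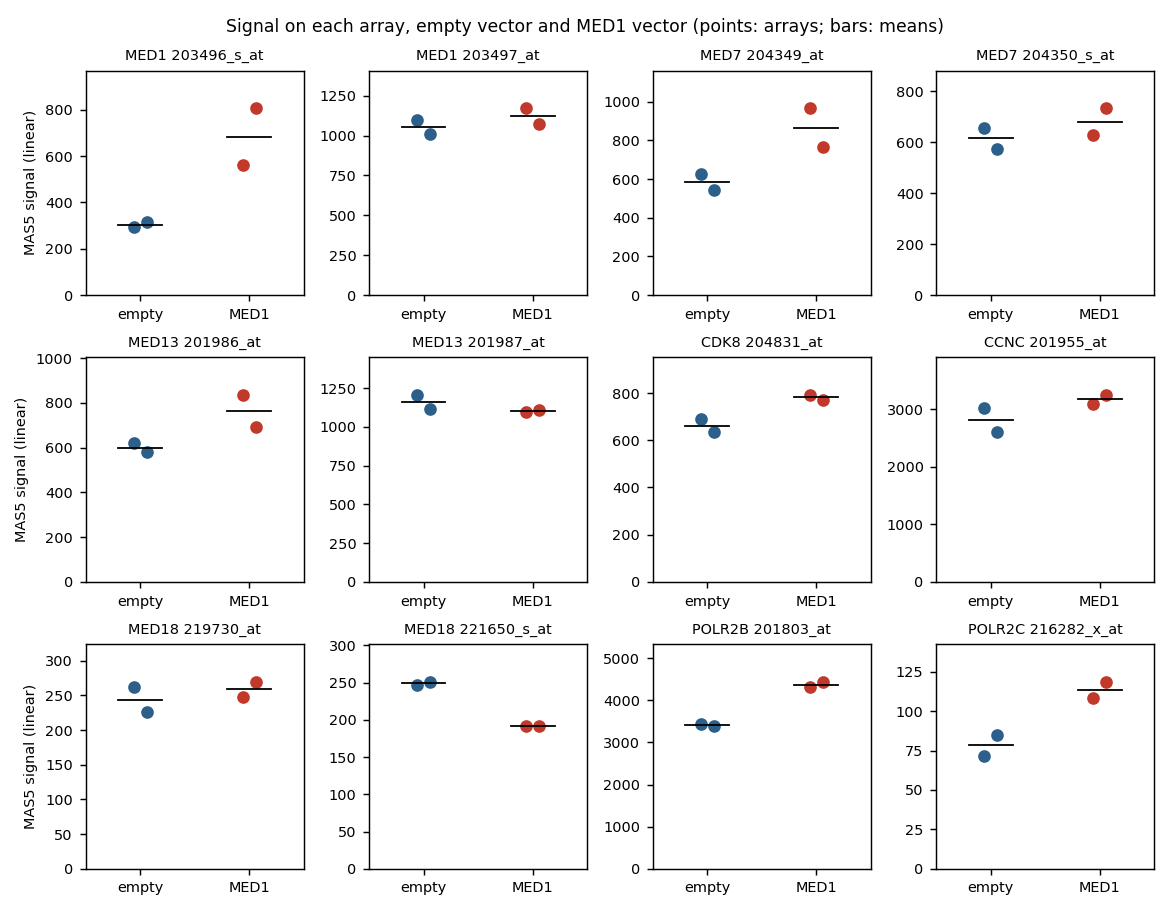
MAS5 signal (linear, axes from 0) of 12 probe sets on each array, with empty vector samples in blue and MED1 samples in red. Points are arrays, replicate 1 on the left of each pair, and bars are group means. MED1 203496_s_at reads 559 and 807 in red against 292 and 315 in blue, whereas the points of MED1 203497_at overlap.

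Beyond MED1, none of the 66 tested member probe sets passed. Of the 79 member probe sets 68 were tested, covering 43 genes; the other 11 had a mean signal under 32.2, the 40th percentile of all probe sets, and were left out. Among the 68, 1 passed at an adjusted p of 0.05, the MED1 probe set, where 0.308% of all tested probe sets passed (41 of 13329, limma, Benjamini-Hochberg). With an unadjusted p under 0.05, 6 were higher (8.82%, against 3.98% of all tested probe sets) and 1 lower (1.47%, against 5.21% of all), together 10.3% of the members against 9.19% of all. Groups did not overlap for 25 of the 68 (36.8%), against 39.9% of all. In the MED1 samples 15 were higher (22.1%, against 17.2% of all) and 10 lower (14.7%, against 22.6% of all). Without regard to direction both shares lay near the background. By direction the members leaned higher where all probe sets leaned lower, and that lean was not tested. The lean of all probe sets also depended on the scaling. Their median log2 fold change was 0.036 with arrays centred on their medians and -0.0013 with quantile normalization. Centring shifts members and all other probe sets alike. A positive log2 fold change was found for 43 of 68 member probe sets (63.2%) and 46.5% of all, and the medians were 0.028 and -0.016. These counts include MED1. Without it, 41 of 66 were positive (62.1%). Both MED1 arrays then lay above the controls for 14 (21.2%) and below for 10 (15.2%). At an unadjusted p under 0.05 (limma), 5 were higher (7.58%) and 1 lower (1.52%).

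The differences were also small. The log2 fold change lay within 0.25 of 0 for 57 of 68 member probe sets (83.8%), against 78.8% of all. The smallest that passed anywhere on the array was 0.58 in size, and MED1 203496_s_at was the 1 member probe set at or above that. The median SE was 0.12 over the members. The median gap between the 2 arrays of a group was 0.11 in MED1 samples and 0.13 in controls, where all tested probe sets gave 0.13 and 0.15. The median size of the log2 fold change, a difference of means of 2 arrays, was 0.11 over the members and 0.12 over all.

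**Figure D2:**
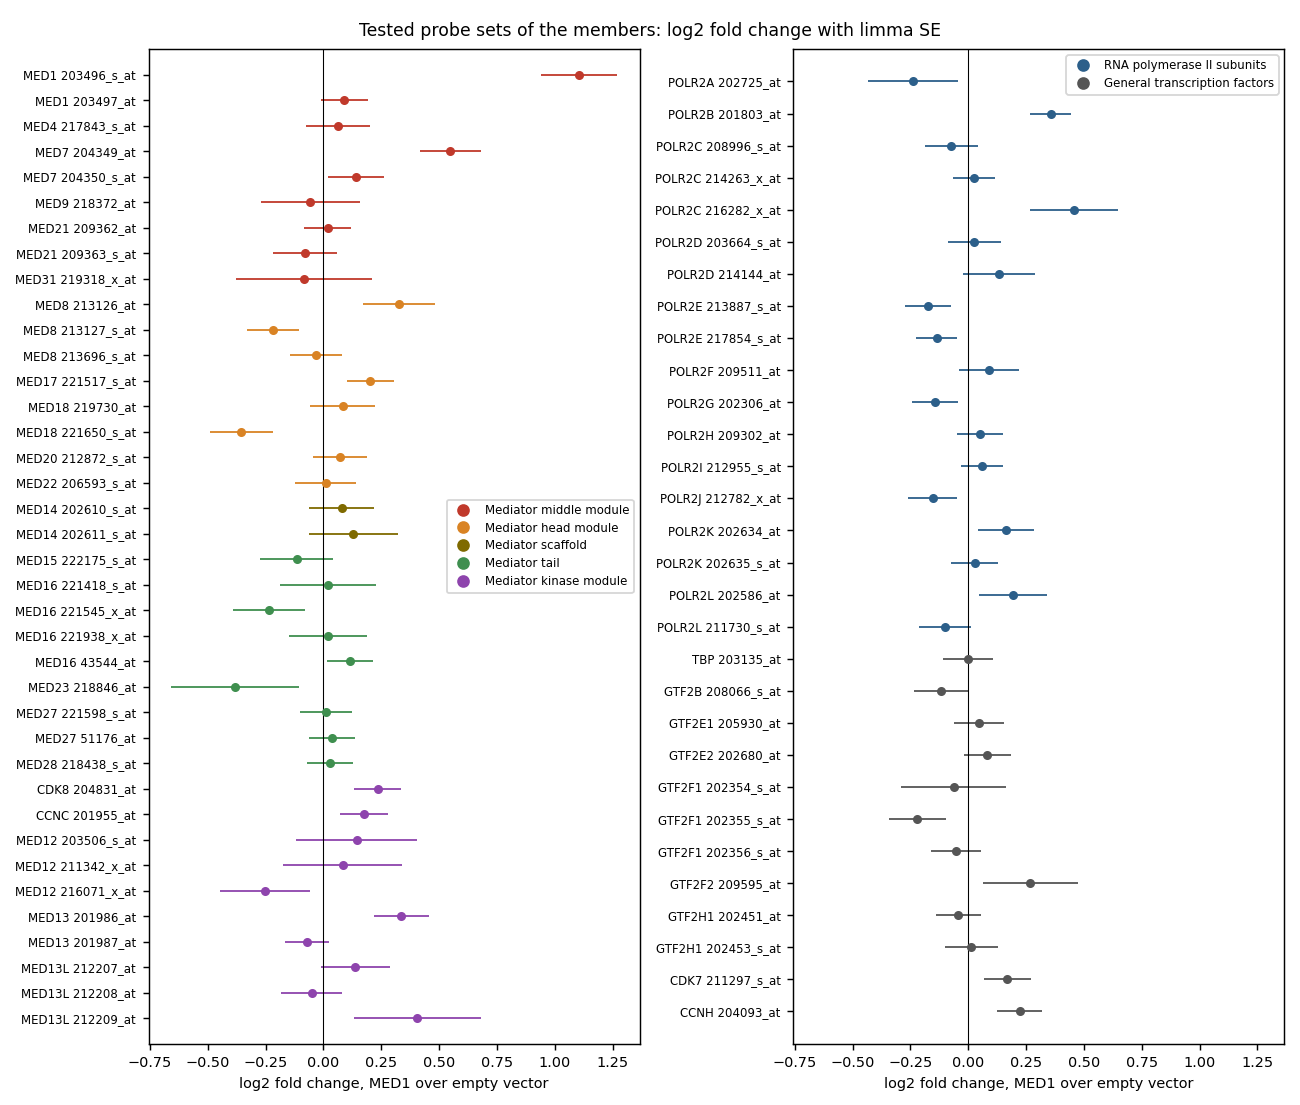
Log2 fold change (MED1 over empty vector, x axis) of the 68 tested member probe sets, with limma SE as bars and colours for modules. MED1 203496_s_at at 1.11 stands apart from the others, which lie between -0.38 and 0.55.

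In the middle module, which holds MED1 itself, the other 5 genes had 7 tested probe sets and none passed (limma). Where 9.19% of all tested probe sets had an unadjusted p under 0.05, 1 of these 7 did. That was MED7, which hinges the middle module with MED21. Its probe set 204349_at read 968 and 764 in the MED1 samples against 625 and 544 in the controls. Both MED1 arrays were above both controls (log2 fold change 0.55 ± 0.13, adjusted p = 0.245, limma with Benjamini-Hochberg). The other MED7 probe set, 204350_s_at, read 627 and 734 against 657 and 574, with overlap (0.14 ± 0.12, adjusted p = 0.76). Without MED1 replicate 2 the first probe set had an adjusted p of 0.00244, at 0.72, in a fit whose lone MED1 array was assumed to vary like the controls (limma), and without MED1 replicate 1 it was 0.38 and did not pass. MED31, a small conserved subunit, gave the lowest value of the module, -0.083 ± 0.29, at dim signals of 43.9 and 30.6 against 51.6 and 30.3. MED4, MED9 and MED21 overlapped between groups on each of their probe sets, with log2 fold changes of -0.079 to 0.063. MED14, the scaffold, read 417 and 329.6 in the MED1 samples against 368 and 334 in the controls by its brighter probe set (0.078 ± 0.14, adjusted p = 0.909) and overlapped by its second, 202611_s_at (0.13 ± 0.19). Its other 3 probe sets were below the filter.

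In the head module, which touches the polymerase, 0 of 8 tested probe sets passed (limma). Of these 8, 1 had an unadjusted p under 0.05 (12.5%, against 9.19% of all tested probe sets). MED18, part of the movable jaw of the head, read 191 and 192 in the MED1 samples against 248 and 251 in the controls by probe set 221650_s_at. Those arrays did not overlap and each pair was tight, at a log2 fold change of -0.36 ± 0.14 (adjusted p = 0.471, limma with Benjamini-Hochberg). A second MED18 probe set went the other way, with 248 and 269.7 against 262 and 226 overlapping (0.084 ± 0.14). MED17, the central subunit of the head, read 943 and 882 against 827 and 755 (0.20 ± 0.10, adjusted p = 0.59). MED8, which tethers MED18 to the head, had the highest value of the module by 213126_at (296 and 229 against 198 and 210.5, 0.33 ± 0.16). Its probe set 213127_s_at was lower on both MED1 arrays, however, at 427 and 431 against 476 and 529 (-0.22 ± 0.11), and 213696_s_at overlapped. MED20 and MED22 overlapped, at 0.072 and 0.010.

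The tail subunits, with MED27 and MED28 at their border with the head, had 9 tested probe sets. None passed (limma), 0 had an unadjusted p under 0.05 (against 9.19% of all), and the median log2 fold change was 0.018. MED23, a target of signal-activated transcription factors, had the lowest value, -0.38 ± 0.28 (adjusted p = 0.703, limma with Benjamini-Hochberg). It rested on 1 array: the signals were 733 and 559 in the MED1 samples against 1209 and 582 in the controls, and without empty vector replicate 1 the value was 0.13. MED16 had the highest value by 43544_at (749 and 786 against 729.8 and 686, 0.11 ± 0.10) and -0.24 by 221545_x_at, whose x suffix flags probes that can match other transcripts. MED15, which binds activators such as those of lipid synthesis, read 133 and 143 against 150.0 and 151, lower on both MED1 arrays by less than the SE (-0.12 ± 0.16). MED27 and MED28 gave 0.012 to 0.036 on 3 probe sets, with arrays overlapping. MED24, which anchors part of the tail, had no tested probe set that names it alone.

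The kinase module had 10 tested probe sets, of which 0 passed (limma). With an unadjusted p under 0.05, 2 were higher (20.0%, against 3.98% of all tested probe sets) and 0 lower (against 5.21%). CDK8, its catalytic subunit, read 792 and 771 in the MED1 samples against 688 and 636 in the controls (0.24 ± 0.10, adjusted p = 0.526, limma with Benjamini-Hochberg). Its partner cyclin C, CCNC, read 3092 and 3248 against 3022 and 2599 (0.18 ± 0.10, adjusted p = 0.623). Both genes were higher on both MED1 arrays. MED13, which links the kinase to core Mediator, read 835 and 694 against 621 and 579 by 201986_at (0.34 ± 0.12, adjusted p = 0.444). By 201987_at it was slightly lower on both MED1 arrays, at 1098 and 1109 against 1206 and 1116 (-0.071 ± 0.095), so its 2 probe sets differ in sign. MED13L, the paralog of MED13, had the highest value of the module by 212209_at, 0.41 ± 0.27, with 350.1 and 376 in the MED1 samples against 394 and 183 in the controls. Those controls bracket the MED1 arrays, and the value moved from 0.93 without empty vector replicate 1 to -0.11 without empty vector replicate 2. The first had an adjusted p of 0.0489 (limma), with the lone control array assumed to vary like the MED1 samples. MED12, which activates CDK8, was dim, at signals of 44.0 to 120.2 on its 3 tested probe sets, with log2 fold changes of 0.14 ± 0.26, 0.083 ± 0.26 and -0.25 ± 0.19; the lowest belonged to 216071_x_at, where both MED1 arrays were below the controls.

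The 12 RNA polymerase II subunits had 18 tested probe sets, of which 0 passed (limma). The median log2 fold change was 0.027. At an unadjusted p under 0.05, 2 were higher (11.1%, against 3.98% of all tested probe sets) and 0 lower (against 5.21%). POLR2B, the second largest subunit, which forms the active site with POLR2A, read 4307 and 4442 in the MED1 samples against 3441 and 3387 in the controls. The pairs were tight and did not overlap (4375 ± 95.2 and 3414 ± 38.5, SD, n = 2), with a log2 fold change of 0.36 ± 0.090 (adjusted p = 0.263, limma with Benjamini-Hochberg). POLR2A, the largest subunit, whose tail is phosphorylated during transcription, gave the lowest value, -0.24 ± 0.19. Its signals were 229 and 235 against 348 and 220.2, so the difference rested on empty vector replicate 1, and without that array the value was 0.071. Both other POLR2A probe sets were below the filter.

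POLR2C, which assembles the polymerase with POLR2J, had the highest value of the subunits on its dimmest probe set. Probe set 216282_x_at, with the same suffix, read 108 and 119 in the MED1 samples against 71.8 and 84.9 in the controls (0.46 ± 0.19, adjusted p = 0.506, limma with Benjamini-Hochberg). Its 2 brighter probe sets gave -0.073 ± 0.11 and 0.026 ± 0.091, at signals of 645 to 762 and 1236 to 1276. POLR2E, a subunit shared with RNA polymerases I and III, was lower on both MED1 arrays by both probe sets, at -0.17 ± 0.098 and -0.14 ± 0.089. Of the other shared subunits, POLR2F, POLR2H, POLR2K and POLR2L gave -0.10 to 0.19 with overlapping arrays on every tested probe set. POLR2G, of the stalk that contacts emerging RNA, read 2967 and 3353 against 3428 and 3540.4 (-0.14 ± 0.098), POLR2I 4591 and 4429 against 4328 and 4329.5 (0.059 ± 0.091), and POLR2J 2961 and 3324 against 3288 and 3709 (-0.15 ± 0.10). POLR2D, the stalk partner of POLR2G, gave 0.026 and 0.13.

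Among the general transcription factors, 0 of 12 tested probe sets passed (limma) and 0 had an unadjusted p under 0.05 (against 9.19% of all). TBP, the TATA-binding protein of TFIID, was at nearly the same level in both groups, 488 and 463 in the MED1 samples against 472 and 479 in the controls (-0.00037 ± 0.11, adjusted p = 0.999, limma with Benjamini-Hochberg). Its sign turns positive when arrays are centred on their medians or quantile normalized. Of the CDK-activating kinase of TFIIH, CDK7 and its cyclin were higher on both MED1 arrays and MNAT1, its assembly factor from the lists of other pathway genes, lower, with none passing. CDK7 read 948 and 1056 against 896 and 881 (0.17 ± 0.10, adjusted p = 0.631), and its cyclin CCNH 2985 and 3141 against 2785 and 2469 (0.22 ± 0.099, adjusted p = 0.544). MNAT1 read 413 and 362 against 418 and 498 (-0.23 ± 0.13, adjusted p = 0.62). GTF2H1, of the TFIIH core, gave -0.043 ± 0.098 and 0.013 ± 0.12. GTF2F2, the smaller TFIIF subunit, had the highest value of the group, 0.27 ± 0.21, on 1 high array (248 and 159.9 against 149 and 178), and without MED1 replicate 1 it was -0.025. GTF2F1, the larger TFIIF subunit, had the lowest, -0.22 ± 0.12 by 202355_s_at (331 and 373 against 398 and 427), with -0.064 and -0.054 by 2 others. GTF2B, which recruits the polymerase to TBP, gave -0.12 ± 0.12, and both TFIIE subunits, GTF2E1 and GTF2E2, gave 0.047 ± 0.11 and 0.082 ± 0.10, with arrays overlapping.

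Probe sets of 1 gene often disagreed. Of 18 members with 2 or more tested probe sets, 10 had values of both signs (55.6%), where 52.3% of all such genes did. The median gap between the highest and the lowest log2 fold change was 0.32 over the members, MED1 among them, and 0.20 over all 2628 such genes. Genes were not matched on their number of tested probe sets, and a gap can widen with that number. After MED1, the widest gaps were those of MED8 (0.54), POLR2C (0.53) and MED13L (0.46). The narrowest were those of MED27 (0.024), POLR2E (0.038) and MED14 (0.051).

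**Figure D3:**
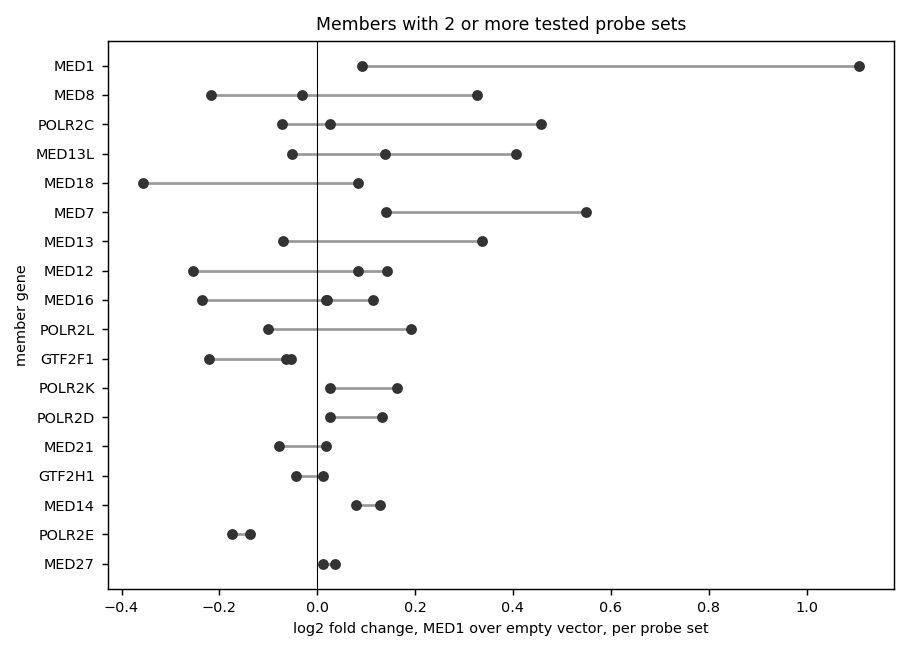
Log2 fold change (x axis) of each tested probe set of the 18 members that have 2 or more, 1 gene per line, ordered by the gap between its highest and lowest value. MED1 spans 0.090 to 1.11, and 10 of the 18 genes have points on both sides of 0.

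By array, on the deposited scaling, the modules differed little. On the log2 scale and relative to the empty vector mean, the median of the kinase module was 0.20 in MED1 replicate 1 and 0.097 in replicate 2, where the controls lay 0.056 to either side of 0. The middle module gave 0.099 and 0.072, against 0.058 to either side. Other modules of several genes (head, tail, polymerase and general factors) lay between -0.028 and 0.046 in the MED1 samples. The widest gaps between the 2 arrays of a group were those of the empty vector pair for MED13L 212209_at (1.04) and MED23 (1.03), followed by the MED1 pair for MED12 211342_x_at (0.75).

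Other genes of the same pathway, from 4 lists of 97 genes in all, were measured for 73, and 1 of the 9 further Mediator genes was among them (CDK19). Of 90 tested probe sets for 72 genes, 0 passed (limma, Benjamini-Hochberg), 3 had a positive and 7 a negative value with an unadjusted p under 0.05 (11.1%, against 9.19% of all), and the median log2 fold change was 0.022. CDK19, the paralog of CDK8, was lower on both MED1 arrays by 2 of 3 probe sets. It read 779.6 and 792 in the MED1 samples against 1042 and 864 in the controls by 212897_at (-0.27 ± 0.11, adjusted p = 0.519), the reverse of the direction of CDK8; the difference between the paralogs was not tested.

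Among further general factors and TBP-associated factors, 3 of 23 tested probe sets were lower at an unadjusted p under 0.05 (13.0%, against 5.21% of all). At that threshold 0 were higher, against 3.98% of all. ERCC3, the TFIIH translocase that opens promoter DNA, had the lowest value, 353 and 305 against 395 and 506 (-0.43 ± 0.15, adjusted p = 0.435, limma with Benjamini-Hochberg), and BTAF1, which removes TBP from DNA, the highest (0.19 ± 0.11). Among 47 probe sets of pausing and elongation factors, the extremes were both cyclins of elongation kinases. CCNT1, the cyclin of CDK9 in P-TEFb, read 123 and 119.7 against 169 and 179.7 (-0.47 ± 0.16, adjusted p = 0.431). CCNK, the cyclin of CDK12 and CDK13, read 65.0 and 66.4 against 20.9 and 45.9 (0.78 ± 0.29, adjusted p = 0.471), at signals near the filter. For subunits of RNA polymerases I and III, 14 of 17 values were positive (82.4%, against 46.5% of all), with a median of 0.076. POLR1C, shared by both enzymes, had the highest, 1059 and 996 against 789 and 745 (0.41 ± 0.098, adjusted p = 0.235), with 0.066 ± 0.10 by a second probe set, and POLR3C the lowest, -0.25 ± 0.19.

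**Figure D4:**
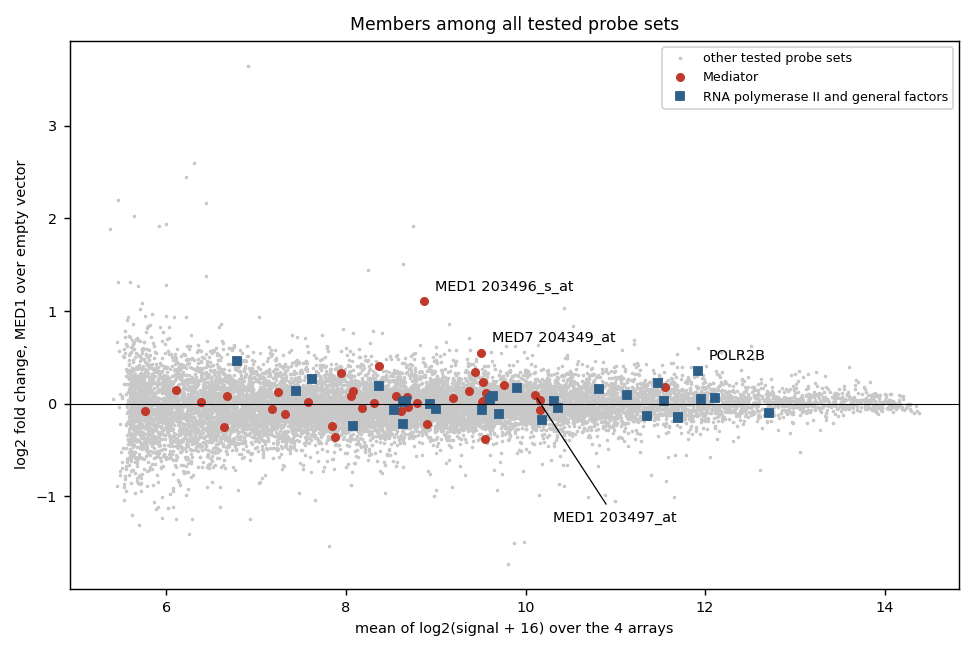
Log2 fold change (y axis) against mean log2(signal + 16) over the 4 arrays (x axis) for all 13329 tested probe sets in grey, Mediator in red and polymerase subunits and general factors in blue. Apart from MED1 203496_s_at at 1.11, members lie within the spread of other probe sets of like signal. MED7 204349_at (0.55) and POLR2B (0.36) are labelled too.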

How the data were processed

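RNA from 2 MED1 vector and 2 empty vector samples (200 ng each) was hybridised to an Affymetrix array. The authors deposited linear MAS5 signal intensities, per the submitters' processing notes; the version and scanner settings are not given here. Every array had the same mean, 500.2, after trimming 2% of values at either end, and no scaling was added. Of 22277 rows, 62 controls were left out. Of the rest, 19064 named 1 gene, 1043 several and 2108 none; 19052 were matched to RefSeq GRCh38.p14 genes for current symbols. Signals were taken to log2(signal + 16), which understates changes of dim genes. Probe sets with a mean under the 40th percentile (32.2) were left out. The others were tested in limma 3.58.1, R 4.3.3 (eBayes with an intensity trend, two-sided, Benjamini-Hochberg over 13329). The fit was tested on simulated data with planted changes of several sizes. Over all sizes together it recovered most of the changed probe sets, and recovery of the smallest size alone is not given here. In most runs the share of false calls was above 0.05. The changes planted there were larger than that of every tested member probe set but MED1 203496_s_at. Recovery of smaller changes was not tested. The residual degrees of freedom were 2, beside 7.1 from the prior. An exact permutation test of 1 value cannot go below 0.333. If the duplicates were not separate cultures, p-values measure only technical spread.

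Members, gene lists and tests were chosen with earlier results of these data known. The rule for members described singly named MED1, members with an unadjusted p under 0.05, CDK8, CCNC, MED12, MED14, MED17, MED7, POLR2A, TBP, CDK7 and the extremes of each module and list; values of further members were added after they were seen. Replicate numbers are shared by the groups, but nothing in the labels pairs them. Alternatives covered the pseudocount, scaling, filter, variance model, replicate block, probe set choice and each array left out. Plots used matplotlib 3.10.9.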

Additional observations from a re-analysis of the deposited data

Results flagged for a closer look

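Of the 11 member probe sets below the filter, 2 read higher on each MED1 array than on either control (18.2%, against 13.3% of the 8886 such probe sets on the array) and 2 read lower (18.2%, against 20.4%). MED14 215167_at read 19.1 and 27.1 in the MED1 samples against 13.1 and 14.3 in the controls, with means of 23.1 and 13.7. MED12 214275_at read 12.4 and 11.7 against 6.95 and 6.71, with means of 12.1 and 6.83. The 2 lower ones were MED16 221544_s_at, at 5.54 and 6.38 against 13.5 and 15.4, and POLR2A 217420_s_at, at 0.86 and 3.75 against 13.7 and 3.88. They entered no test, and signals this low have no known background here.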

How the results depend on the processing

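Across all tested probe sets 41 passed; the count was 0 when dim probe sets were kept (limma; 1680 at an unadjusted p under 0.05), 7 without the variance trend, 230 with the replicate number as a block, 26 (without empty vector replicate 2) to 234 (without MED1 replicate 2) with 1 array left out (the spread then comes from the remaining pair and the prior), and 36 to 48 otherwise. In the main fit 1 member probe set passed, MED1 203496_s_at. With the replicate block 3 passed (limma): that probe set, MED7 204349_at (adjusted p = 0.0157) and POLR2B (0.0238). None passed with dim probe sets kept, where 6 of 79 had an unadjusted p under 0.05 (limma), against 1680 of all 22215. None passed without the trend, where 5 of 68 had an unadjusted p under 0.05 (limma), against 1132 of all 13329. With either control array left out, MED1 203496_s_at did not pass. Same-numbered samples deviated together at r = 0.12, over 2 pairs, too few to treat the numbers as pairing. The groups of 25 member probe sets did not overlap, and 43 to 52 did not with an array left out, a looser criterion. The count was 31 of 68 with arrays centred on their medians. It was 29 of 79 with dim probe sets kept and 21 of 57 with the filter at the 60th percentile. The share over all probe sets was not computed under these settings or with an array left out. Changes in the count are therefore no result about the members. The filter settings also change which probe sets are counted. Centring raised the module medians alike, among them those of the head (0.041 to 0.093), tail (0.018 to 0.070) and polymerase (0.027 to 0.079). The log2 fold change of MED1 203496_s_at was 1.11 with dim probe sets kept and without the trend, where it did not pass, and 0.85 to 1.36 with an array left out. TBP turned positive when centred (0.052) or quantile normalized (0.011). With an array left out, directions turned without a call for TBP (-0.038 to 0.037), MED14 202610_s_at (-0.085 to 0.24) and 202611_s_at (-0.051 to 0.31), MED12 203506_s_at (-0.13 to 0.42) and 211342_x_at (-0.29 to 0.46), GTF2F2 (-0.025 to 0.56), MED31 (-0.36 to 0.19), POLR2A (-0.55 to 0.071), MED23 (-0.90 to 0.13) and MED13L 212209_at (-0.11 to 0.93, passing without empty vector replicate 1). The cause was not tested. A filter on the mean of log2(signal + 16), chosen after seeing the data, gave 39 passing probe sets, MED1 203496_s_at among them (adjusted p = 0.032). Low signals have no known background to be set against.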

Other observations

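Some probe sets list a member together with other genes, so their values belong to no single gene. One that lists MED24 and the microRNA gene MIR6884 read 306 and 319 in the MED1 samples against 252 and 297 in the controls, a log2 fold change of 0.18 ± 0.13 (adjusted p = 0.719, limma with Benjamini-Hochberg). One that lists POLR2J with its copies POLR2J2, POLR2J3 and POLR2J4 and with UPK3BL1 read 239 and 174 against 331 and 324. Both MED1 arrays were lower there, at -0.64 ± 0.16 (adjusted p = 0.264). The probe set that names POLR2J alone gave -0.15, and the difference between them was not tested.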
